A study of Mus musculus with 42 samples.

Results

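RNAseq values of immobilized and basal wild-type (WT) tibialis anterior (TA) muscle were compared, using the WT libraries of the first of the 2 sequencing sets of the study. The comparison was chosen by the sample labels alone. It holds 7 of the 42 libraries, 3 immobilized and 4 basal, and takes in every gene of the deposited table. The study asked how sestrins, proteins that sense nutrients and stress, act in muscle wasting, and for that it sequenced muscle of WT mice, of mice with extra SESN1 or SESN2 in skeletal muscle (Sesn1SkM-Tg and Sesn2SkM-Tg), and of mice without Sesn1 (Sesn1KO). All 7 libraries came from male C57BL/6J mice at 4 months of age. In the immobilized group the right hindlimb was held by rigid plastic sticks under an adhesive bandage for 3 days, while the basal group was other mice that had no atrophy treatment, so the contrast is between animals and not between the legs of an animal. The WT mice of this set were run beside both transgenic lines and carry no transgene themselves. In Sesn1SkM-Tg mice the MCK promoter drives human SESN1, and in Sesn2SkM-Tg mice an MCK-tTA construct drives Sesn2 from a Tet-regulated promoter. TA is a mostly fast-twitch muscle of the lower leg. The fast myosin gene Myh4 was listed between 19829 and 56193 normalized counts in the 7 libraries.

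Disuse shrinks muscle fibers within days. The loss of protein runs through the ubiquitin-proteasome system, in which muscle ligases such as atrogin-1 (Fbxo32) and MuRF1 (Trim63) mark proteins for the proteasome, and through autophagy and lysosomes. FoxO transcription factors drive many of these genes and are held back by insulin and AKT, while mTORC1 promotes translation and restrains autophagy. Metallothioneins are small cysteine-rich proteins that bind zinc and copper and are induced by metals, glucocorticoids and inflammation, and they are known among the genes that increase in wasting muscle.

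The metallothionein gene Mt2 had the largest increase among called genes, and its promoter is therefore shown first, with that of Mt1. Mt2 lies on chromosome 8 at positions 94172664 to 94173568 and Mt1 beside it at 94179082 to 94180327 (GRCm38, plus strand, protein-coding genes). The windows run from 250 bases before to 50 bases after the RefSeq gene start (GRCm38.p6), printed 5′ to 3′. Capitals mark the core of the metal response element, TGCACNC or TGCGCNC on either strand, with no overlap between matches.
Mt2, chr8:94172368-94172667, plus strand: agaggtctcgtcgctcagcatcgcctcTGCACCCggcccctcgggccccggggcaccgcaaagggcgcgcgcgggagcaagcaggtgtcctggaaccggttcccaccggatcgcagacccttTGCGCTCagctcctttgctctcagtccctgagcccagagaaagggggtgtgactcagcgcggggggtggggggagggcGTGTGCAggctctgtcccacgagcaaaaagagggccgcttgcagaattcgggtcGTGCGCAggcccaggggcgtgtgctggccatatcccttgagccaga
Mt1, chr8:94178839-94179138, plus strand: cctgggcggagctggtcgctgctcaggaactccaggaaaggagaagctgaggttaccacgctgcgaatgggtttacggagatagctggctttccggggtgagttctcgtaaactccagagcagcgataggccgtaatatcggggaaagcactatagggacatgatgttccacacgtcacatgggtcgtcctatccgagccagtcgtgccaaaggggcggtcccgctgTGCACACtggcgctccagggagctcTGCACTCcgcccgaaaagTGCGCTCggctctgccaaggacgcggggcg
The Mt2 window holds 4 such cores and the Mt1 window 3. Of 32851 RefSeq promoter windows of this length, 25.7% hold at least 1 core and 1.97% hold 3 or more. A match of letters is a description of the sequence and not evidence of binding.

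The table holds 13809 genes as normalized counts, a value the authors scaled between libraries, and the number of reads behind a value is unknown. Values summed to between 1064363 and 1159418 in the basal libraries and between 830698 and 880365 in the immobilized libraries, so the groups did not overlap, and the 10 genes with the highest values took 24% to 25.5% of the sum in basal and 20.9% to 21.8% in immobilized muscles. On the log2 scale, libraries correlated at 0.961 to 0.989 within the basal group, at 0.972 to 0.977 within the immobilized group and at 0.917 to 0.965 between the groups. The first principal component held 53% of the variance and separated the groups, with immobilized replicate 3 farthest out. The second held 21.7% and set basal replicate 4 apart from the other 6 libraries. The labels do not say that each library came from its own mouse, so p-values measure the spread between these libraries. In whole muscle, fewer cells of a type and less RNA per cell cannot be told apart.

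Of 13705 genes that reached a normalized count of 1 in any library of the set, 4018 (29.3%) differed between immobilized and basal muscle by limma. A call needed an adjusted p (Benjamini-Hochberg) under 0.05 together with a log2 fold change of 0.25 or more in either direction. In immobilized muscle 2037 of them (14.9%) were higher and 1981 (14.5%) lower, and 634 were higher and 411 lower by at least 1 on the log2 scale. Means are given ± SD over the 4 basal and 3 immobilized libraries, and log2 fold changes ± SE, on the scale of log2(value + 1), which understates changes of genes with low values. The median over all genes was 0.003. When each library was rescaled to the same sum, that median moved to 0.278, and 4087 genes were called higher against 741 lower, 84.7% higher in place of 50.7%. The medians of the gene lists moved up by 0.15 to 0.34 with it, and 10 of the 31 lists with a median below 0 then had one above 0. Directions below are therefore relative to the deposited scaling. Rescaling to the same sum is called equal sums below, and it is not given for every count that it changes. With equal sums, for example, 14 in place of 10 lysosomal genes and 15 in place of 11 collagen and matrix genes were called higher. Without immobilized replicate 3 the number of called genes was 2020, and without basal replicate 4 it was 4026.

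Mt2 was the gene with the largest increase among called genes. Its values were 1.58, 1.18, 2.07 and 1.18 in basal and 133, 71.2 and 176 in immobilized muscles (log2 fold change 5.60 ± 0.66, adjusted p = 1.26e-05). Mt1 was listed at 2.53, 2.65, 4.03 and 6.44 in basal and 81, 75 and 129 in immobilized muscles (log2 fold change 4.32 ± 0.51, adjusted p = 1.21e-05). For both genes every immobilized library lay more than 10-fold above every basal library. Because Mt1 and Mt2 are close relatives, reads they share were divided between them by estimate. Of the other 7 members of the list of metallothioneins and zinc handling that were tested, none rose, and 1 did with each library rescaled to the same sum. The zinc sensor and transcription factor Mtf1 fell (log2 fold change -0.45 ± 0.17, adjusted p = 0.0488), as did the zinc transporter gene Slc30a2 (log2 fold change -0.73 ± 0.23, adjusted p = 0.0193). The call of Mtf1 did not hold without immobilized replicates 2 or 3 or basal replicates 1, 2 or 3. Slc30a2 was no longer called without immobilized replicate 3. Under another scaling Mtf1 was not called with equal sums or with quantile normalization. By scaling, Slc30a2 was no longer called with equal sums.

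Serpina3n, an acute-phase serine protease inhibitor, came after Mt2 and just before Mt1 by log2 fold change (chromosome 12, 104406729 to 104414329). It had 1.98, 1.08, 1.43 and 1.61 in basal and 45.8, 44.1 and 63.2 in immobilized muscles (log2 fold change 4.36 ± 0.49, adjusted p = 7.55e-06), and the groups were far apart. Serpinb1a, an inhibitor of neutrophil proteases, had values of 3.65, 2.75, 2.17 and 3.58 in basal and 82.4, 42 and 83.8 in immobilized muscles (log2 fold change 4.08 ± 0.39, adjusted p = 1.32e-06). Timp1, an inhibitor of matrix metalloproteases, overlapped between the groups, with 0.277, 0.493, 4.68 and 0.421 in basal and 3.34, 20.9 and 61.7 in immobilized muscles (log2 fold change 3.19 ± 0.87, adjusted p = 0.0093), since basal replicate 3 lay above immobilized replicate 1. In the list of the acute phase and the IL6-STAT3 pathway, 11 of 20 genes rose and 0 fell, with a median log2 fold change of 0.89. They included the iron-binding lipocalin Lcn2, with 0.259 ± 0.229 in basal and 7.99 ± 3.37 in immobilized muscles (log2 fold change 2.77 ± 0.56, adjusted p = 0.00117), the receptor chain Il6st (log2 fold change 0.38 ± 0.14, adjusted p = 0.0408) and the serum amyloid gene Saa3 (log2 fold change 1.82 ± 0.66, adjusted p = 0.0429). Socs3, a feedback inhibitor of STAT3, was listed at 1.75 ± 0.573 in basal and 7.12 ± 6.3 in immobilized muscles, with an adjusted p of 0.107. The number that rose was 5 without immobilized replicate 3 and 9 without basal replicate 4, where 1 fell. No call was left for Timp1 without immobilized replicate 3. The test was missed by Il6st without immobilized replicates 1 or 3 or basal replicates 1, 2 or 3. The adjusted p of Saa3 was 0.05 or more without immobilized replicates 2 or 3 or basal replicates 1, 2, 3 or 4. In addition Saa3 was not called with quantile normalization.

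Csrp3, which encodes the Z-disc protein MLP, had 10.6, 4.72, 33.3 and 52.8 in basal and 133, 315 and 294 in immobilized muscles (log2 fold change 3.63 ± 0.79, adjusted p = 0.00206). Mustn1, a small nuclear protein of muscle and skeleton, had 61.6, 24.5, 57.2 and 182 in basal and 273, 1016 and 828 in immobilized muscles (log2 fold change 3.26 ± 0.48, adjusted p = 7.79e-05). The groups did not overlap for either gene, although basal replicate 4 was the highest basal library for both. Fbxl22, an F-box protein of the cardiac and skeletal Z-disc, had 2.24, 2.44, 2.29 and 1.81 in basal and 26.1, 29.1 and 38.3 in immobilized muscles (log2 fold change 3.32 ± 0.37, adjusted p = 7.55e-06). The small GTPase gene Rrad (log2 fold change 3.52 ± 0.97, adjusted p = 0.0103), the death receptor gene Eda2r (log2 fold change 3.03 ± 0.39, adjusted p = 3.26e-05), the transcription factor gene Runx1 (log2 fold change 3.09 ± 0.44, adjusted p = 5.88e-05) and the CARD scaffold gene Card14 (log2 fold change 3.18 ± 0.70, adjusted p = 0.00212) complete the 12 largest increases among genes that have a symbol, are no predicted genes or pseudogenes and reach a mean of 5 in a group. Runx1 is known to increase in denervated muscle. Among the 12, Timp1 is the only gene whose groups overlapped, against 16.9% of all tested genes that were higher with no overlap. The 12 were chosen by their increase in the same libraries, so this separation adds no support. Fitted again, Rrad did not pass without immobilized replicate 3.

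Mettl21c, a muscle lysine methyltransferase, had the largest decrease by the same criteria (chromosome 1, 44009408 to 44020034, minus strand). It fell, with 48.1, 51.8, 28.9 and 29.4 in basal and 3.39, 3.55 and 2.03 in immobilized muscles (log2 fold change -3.32 ± 0.40, adjusted p = 1.31e-05), and the groups were far apart. The list held 4 tested Mettl21 genes, and Mettl21c was the one called. Ky, the kyphoscoliosis peptidase of the Z-disc, had 298, 336, 303 and 259 in basal and 36.6, 49.7 and 33.1 in immobilized muscles (log2 fold change -2.89 ± 0.39, adjusted p = 4.13e-05). Perm1, a regulator of oxidative metabolism in muscle, had 146, 226, 360.3 and 539 in basal and 50.4, 59.4 and 36.3 in immobilized muscles (log2 fold change -2.54 ± 0.39, adjusted p = 1.10e-04), with a wide range among basal libraries that still lay above all immobilized ones. Osteocrin (Ostn), a secreted muscle peptide, had 11, 2.14, 12.3 and 21.6 in basal and 1.22, 0.41 and 1.24 in immobilized muscles (log2 fold change -2.43 ± 0.47, adjusted p = 8.93e-04), and basal replicate 2 was close to the immobilized level. The other large decreases were in Klhl33 (log2 fold change -2.54 ± 0.39, adjusted p = 1.30e-04), the cAMP phosphodiesterase Pde4a (log2 fold change -2.49 ± 0.29, adjusted p = 1.26e-05), Sec14l5 (log2 fold change -2.44 ± 0.32, adjusted p = 3.27e-05), Nrep (log2 fold change -2.41 ± 0.21, adjusted p = 6.62e-07), the potassium channel subunit Kcng4 (log2 fold change -2.40 ± 0.39, adjusted p = 2.04e-04) and the cytosolic glycerol-3-phosphate dehydrogenase Gpd1 (log2 fold change -2.33 ± 0.25, adjusted p = 5.73e-06). For all 12 the groups did not overlap, against 16.9% of tested genes that were lower with no overlap. These 12 were chosen by their decrease in the same libraries, so the separation adds no support. Outside these criteria, the predicted gene Gm20721, named after its values were seen, fell further (318, 367, 309.5 and 360.4 in basal and 206, 0.305 and 6.64 in immobilized muscles, log2 fold change -4.73 ± 1.76, adjusted p = 0.047), and so did a gene without a symbol, ENSMUSG00000101384 (28.8, 22.6, 27.1 and 40.7 in basal and 4.89, 0.0923 and 0.0876 in immobilized muscles, log2 fold change -3.98 ± 0.76, adjusted p = 7.42e-04). The call of Gm20721 did not hold without immobilized replicates 2 or 3 or basal replicates 1, 2, 3 or 4. Under another scaling Gm20721 was not called with equal sums or with quantile normalization.

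**Figure D1:**
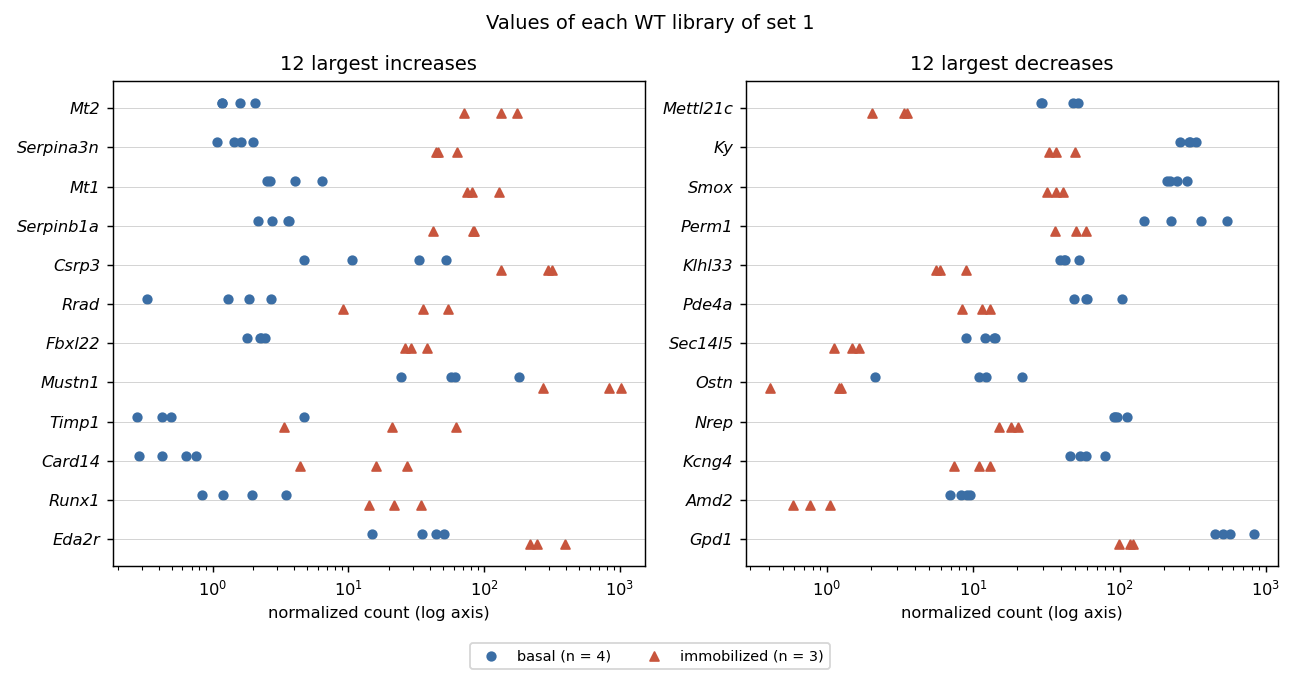
Normalized counts (log axis) of the 12 genes with the largest increase and the 12 with the largest decrease among called genes that have a symbol, are no predicted genes or pseudogenes and reach a mean of 5 in a group, in each WT library of set 1 (circles, basal, n = 4, and triangles, immobilized, n = 3). The groups are apart for every gene shown except Timp1, where basal replicate 3 (4.68) lies above immobilized replicate 1 (3.34).

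Polyamine metabolism supplied 2 of the 12 largest decreases. Smox, which oxidizes spermine back to spermidine, had 248, 221, 211 and 287 in basal and 41.2, 31.9 and 36.7 in immobilized muscles (log2 fold change -2.69 ± 0.23, adjusted p = 6.62e-07). Amd2, a near copy of the S-adenosylmethionine decarboxylase gene Amd1, fell (log2 fold change -2.39 ± 0.40, adjusted p = 2.79e-04), and its values are uncertain since shared reads were divided between the copies. Amd1 itself was listed at 1617, 1541, 969.6 and 625 in basal and 319, 244 and 222 in immobilized muscles (log2 fold change -2.10 ± 0.30, adjusted p = 5.99e-05). Opposite to these, Odc1, the enzyme that makes putrescine, rose, with 135 ± 37.6 in basal and 409 ± 167 in immobilized muscles (log2 fold change 1.57 ± 0.32, adjusted p = 0.00114), as did the spermidine synthase Srm (log2 fold change 1.01 ± 0.29, adjusted p = 0.0136) and the acetyltransferase Sat1 (log2 fold change 0.66 ± 0.22, adjusted p = 0.0291). In all, 3 of the 12 genes of the list rose and 4 fell, and the median was 0.06. These counts were 1 and 3 without immobilized replicate 3. Srm was no longer called without immobilized replicate 3. No call was left for Sat1 without immobilized replicates 2 or 3 or basal replicates 2 or 3.

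Of the 3 sestrin genes 1 was called. Sesn1 had 20.6, 22.1, 16.4 and 15 in basal and 15.2, 12.4 and 13.1 in immobilized muscles, and its log2 fold change of -0.41 ± 0.24 (SE) did not pass the test (adjusted p = 0.203), except with array quality weights (log2 fold change -0.54, adjusted p = 0.0421). Sesn2 had 2.46, 2.5, 3.39 and 2.18 in basal and 2.76, 1.86 and 2.96 in immobilized muscles, a log2 fold change of -0.05 ± 0.22 with an adjusted p of 0.892. Sesn3 fell, with 4.72, 5.32, 9.37 and 3.34 in basal and 3.37, 1.41 and 1.62 in immobilized muscles (log2 fold change -1.07 ± 0.29, adjusted p = 0.00855), and its groups overlapped between basal replicate 4 and immobilized replicate 1. In the list of sestrins, GATOR complexes, Rag GTPases and mTORC1, which also holds the TSC complex that switches mTORC1 off, 3 of 40 genes rose and 10 fell, with a median of -0.26. The largest change was an increase of Eif4ebp1, the translation repressor that mTORC1 phosphorylates, with 29.2, 28.5, 22.9 and 27.9 in basal and 119.9, 134 and 149.9 in immobilized muscles (log2 fold change 2.27 ± 0.21, adjusted p = 6.62e-07). Wdr24, a subunit of GATOR2, fell (log2 fold change -0.78 ± 0.17, adjusted p = 0.00203). With sums made equal, 9 genes of this list were called higher and 3 lower, and the median was 0.06, so the direction of the group as a whole depends on the scaling. Leaving out immobilized replicate 3, 1 rose and 5 fell. The test was missed by Sesn3 without immobilized replicate 3.

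Genes of the proteasome rose together. Of 34 subunits of the core and the regulatory particle, 32 rose and 0 fell, against 14.9% of all tested genes that rose, with log2 fold changes from -0.12 to 1.16 and a median of 0.77. In the 20S core all 7 alpha subunits rose (median 0.80) and all 7 beta subunits rose (median 0.77). All 6 ATPases of the base (median 0.75) and 12 of 14 non-ATPase subunits rose (median 0.65). The alpha subunit Psma7 had 76.8, 64.9, 67.8 and 99.7 in basal and 144, 183 and 190.0 in immobilized muscles (log2 fold change 1.16 ± 0.15, adjusted p = 3.27e-05). The ubiquitin receptor Psmd4 had 135, 122, 100.3 and 121 in basal and 219, 294 and 266 in immobilized muscles (log2 fold change 1.11 ± 0.15, adjusted p = 3.27e-05), and the catalytic subunit Psmb5 98.2 ± 23.3 in basal and 143 ± 24 in immobilized muscles (log2 fold change 0.55 ± 0.18, adjusted p = 0.0243). Summed over the 7 alpha subunits, the level was 541 to 643 in basal and 956 to 1133 in immobilized libraries. Rescaling to equal sums left the 7 alpha, 7 beta and 6 ATPase calls in place and gave 13 non-ATPase calls, and without immobilized replicate 3 the calls were 6, 4, 5 and 10. Of 8 proteasome assembly factors and activators 2 rose, with a median of 0.18, and 5 rose with equal sums. The antioxidant response element core TGACNNNGC, searched on both strands of the promoter windows, was found for 5 of the 28 subunits that have a window (17.9%), beside 17.2% of the 9892 tested genes with one. The adjusted p of Psmb5 was 0.05 or more without immobilized replicates 2 or 3 or basal replicates 2 or 3.

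Ubiquitin ligases of muscle moved in both directions. Of 16 ligases and related genes of atrophy, 3 rose and 4 fell, with a median of -0.30, beside 14.9% higher and 14.5% lower over all tested genes. Trim63 (MuRF1) rose, with 309, 297, 183 and 179 in basal and 1249, 537 and 534 in immobilized muscles (log2 fold change 1.60 ± 0.30, adjusted p = 6.36e-04), and Fbxo32 (atrogin-1) with 878, 668, 336 and 201 in basal and 1357, 782 and 799 in immobilized muscles (log2 fold change 1.08 ± 0.36, adjusted p = 0.0267). The groups were apart for Trim63, whereas for Fbxo32 basal replicate 1 lay above immobilized replicates 2 and 3. The polyubiquitin gene Ubb rose as well (log2 fold change 0.54 ± 0.16, adjusted p = 0.0137). Trim55 (MuRF2), a relative of MuRF1 at the sarcomere, fell, with 47.5 ± 4.06 in basal and 20.3 ± 3.58 in immobilized muscles (log2 fold change -1.20 ± 0.13, adjusted p = 7.55e-06), and Cblb, a ligase of insulin signaling, also fell (log2 fold change -0.60 ± 0.16, adjusted p = 0.00969). Fbxo30 was listed at 21.2 ± 7.85 in basal and 26.6 ± 7.24 in immobilized muscles and was not called (adjusted p = 0.381). When immobilized replicate 3 was left out, 1 gene of this list was called higher and 3 lower. With equal sums 5 were higher and 1 lower and the median was 0.04, so the balance of this list depends on the scaling. The ASB proteins, adaptors of cullin-5 ligases of which several are muscle genes, were lower for 8 of 16 genes and higher for 1, and the median was -0.47. The number lower was 5 without immobilized replicate 3 and also 5 with equal sums. Asb18 had the largest decrease (log2 fold change -1.78 ± 0.24, adjusted p = 4.10e-05), followed by Asb10 (log2 fold change -1.02 ± 0.19, adjusted p = 5.57e-04) and Asb14 (log2 fold change -0.97 ± 0.19, adjusted p = 9.71e-04), whereas Asb11 rose (log2 fold change 0.49 ± 0.14, adjusted p = 0.0111). Since MuRF1 is a known FoxO target, the promoter window of Trim63 is given with the forkhead core GTAAACA, searched on both strands, in capitals.
Trim63, chr4:134314870-134315169, plus strand: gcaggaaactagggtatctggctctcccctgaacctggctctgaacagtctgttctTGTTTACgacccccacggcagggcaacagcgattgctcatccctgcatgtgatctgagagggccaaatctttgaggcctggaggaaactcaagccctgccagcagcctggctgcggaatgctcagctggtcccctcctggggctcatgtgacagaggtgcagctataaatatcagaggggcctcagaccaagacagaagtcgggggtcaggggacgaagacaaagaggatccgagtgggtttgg
The window holds 1 match, on the opposite strand, and 3.65% of all windows hold any. Trim63 was the only gene with a match among the 13 of this atrophy list that have a window (7.69%). Of all tested genes with a window 3.08% had one. Fitted again, Fbxo32 did not pass without immobilized replicates 1 or 3 or basal replicates 3 or 4. The call of Ubb did not hold without immobilized replicate 3. Asb11 was no longer called without immobilized replicate 1. By scaling, Cblb was no longer called with equal sums.

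With the deposited scaling more core autophagy genes fell than rose. In core autophagy 3 of 36 genes rose and 10 fell, with a median of -0.12. The kinase genes that start autophagy fell, Ulk1 with 114 ± 13.4 in basal and 63.8 ± 24.4 in immobilized muscles (log2 fold change -0.89 ± 0.18, adjusted p = 0.00125) and Ulk2 with 141 ± 28.2 in basal and 81.1 ± 12 in immobilized muscles (log2 fold change -0.78 ± 0.20, adjusted p = 0.00602), and with them their partner Atg13 (log2 fold change -0.58 ± 0.15, adjusted p = 0.00621) and the lipid scramblase Atg9a (log2 fold change -0.75 ± 0.13, adjusted p = 3.24e-04). The cargo receptor p62 (Sqstm1) rose, with 609, 518, 472 and 501 in basal and 838, 1087 and 1080.4 in immobilized muscles (log2 fold change 0.93 ± 0.19, adjusted p = 0.0012). The list, Sqstm1 included, summed to 2445 to 2748 in basal and to 2932 to 3091 in immobilized libraries, so its sum rose although more genes fell. With library sums made equal, 12 genes of the list were higher and 2 lower, so the balance of this list depends on the scaling, and without immobilized replicate 3 it was 1 and 5. Of 19 lysosomal proteases and membrane proteins 10 rose and 0 fell (median 0.49), while 6 rose without immobilized replicate 3 and 1 fell without basal replicate 4. Cathepsin L (Ctsl), a fiber protease of wasting muscle, rose, with 122, 98, 80.2 and 84.1 in basal and 186, 216 and 206 in immobilized muscles (log2 fold change 1.09 ± 0.17, adjusted p = 1.17e-04). Cathepsin S (Ctss), which macrophages express, rose, with 2.74 ± 1.11 in basal and 28.9 ± 18.6 in immobilized muscles (log2 fold change 2.88 ± 0.46, adjusted p = 1.63e-04), and cathepsins H and Z rose too (log2 fold change 1.37 ± 0.22, adjusted p = 1.56e-04 for Ctsh and log2 fold change 1.14 ± 0.18, adjusted p = 1.96e-04 for Ctsz). Ctsb and Ctsd were not called (adjusted p of 0.11 and 0.0935), but both were called higher with equal sums, with quantile normalization and with array quality weights. Macrophage markers, described below, rose as well, and the part of macrophages in the lysosomal increases was not tested. Of 17 V-ATPase subunits, 3 rose and 1 fell, while 10 rose and 0 fell with equal sums and 1 rose and 0 fell without immobilized replicate 3. No call was left for Atg13 without immobilized replicate 3. In addition Ulk2 and Atg13 were not called with equal sums.

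Many genes of energy metabolism fell. In the citrate cycle and the pyruvate dehydrogenase complex 17 of 18 genes fell and 0 rose, against 14.5% of all tested genes that fell, and the median was -0.77. Citrate synthase (Cs) had 751, 809, 826 and 1205 in basal and 446, 423 and 366 in immobilized muscles (log2 fold change -1.10 ± 0.19, adjusted p = 3.14e-04). Idh3a, a subunit of the NAD-dependent isocitrate dehydrogenase, had 620.2, 659.8, 753 and 1013 in basal and 296, 300.0 and 269 in immobilized muscles (log2 fold change -1.37 ± 0.20, adjusted p = 6.69e-05). Neither gene overlapped between the groups. Their list summed to between 7850 and 11870 in basal and between 4834 and 5402 in immobilized libraries. Fatty acid oxidation followed, with 13 of 23 genes lower and 0 higher (median -0.74), among them the carnitine palmitoyltransferase Cpt1b, with 352 ± 124 in basal and 137 ± 31.4 in immobilized muscles (log2 fold change -1.33 ± 0.24, adjusted p = 4.32e-04), and the medium-chain dehydrogenase Acadm (log2 fold change -1.08 ± 0.20, adjusted p = 5.31e-04). The fatty acid transporter Cd36 was listed at 249.6 ± 58.8 in basal and 275 ± 33.7 in immobilized muscles and did not pass (adjusted p = 0.567), but was called higher with equal sums. Branched-chain amino acid catabolism had 6 of 9 genes lower and 0 higher (median -0.67). With equal sums the numbers that fell were 11, 9 and 4 in these 3 lists, and without immobilized replicate 3 they were 14, 9 and 4.

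Subunits of the respiratory chain were lower in part. Over complexes I to IV and ATP synthase 30 of 79 nuclear genes fell and 1 rose, with a median of -0.51, and 76 of 79 had a fold change below 0. The complex I subunit Ndufs1 had 473, 542, 614 and 443 in basal and 271, 244 and 238 in immobilized muscles (log2 fold change -1.03 ± 0.16, adjusted p = 1.66e-04), and the ATP synthase subunit Atp5a1 2698 ± 709 in basal and 1345 ± 86.9 in immobilized muscles (log2 fold change -0.97 ± 0.21, adjusted p = 0.00169). The 1 that rose was Cox8a (log2 fold change 0.69 ± 0.20, adjusted p = 0.0142). All 13 subunits encoded by the mitochondrial genome had fold changes between -0.55 and -0.05, and none was called. Mitochondrial ribosomal proteins had 15 of 77 genes lower and 0 higher (median -0.23). Rescaling to equal sums reduced the lower calls to 8 of the 79 respiratory genes and to 1 of 77 in the mitochondrial ribosome, where 9 were then higher. They were 9 and 2 without immobilized replicate 3, 16 and 7 without basal replicate 4 and 17 and 10 with quantile normalization. Among the transcriptional regulators of these genes, 6 of 14 fell and 0 rose. They were Perm1 (above), the coactivators Ppargc1a (log2 fold change -1.11 ± 0.34, adjusted p = 0.0178) and Ppargc1b (log2 fold change -1.55 ± 0.25, adjusted p = 1.77e-04), the nuclear receptors Esrra (log2 fold change -1.09 ± 0.25, adjusted p = 0.00272), Esrrg (log2 fold change -0.74 ± 0.23, adjusted p = 0.0208) and Ppara (log2 fold change -1.54 ± 0.37, adjusted p = 0.00384). The binding sequence of estrogen-related receptors, TNAAGGTCA on either strand, was found in a promoter window of 3 of 63 respiratory genes (4.76%), beside 0.91% of the tested genes with a window. It was found for 0 of 16 citrate cycle genes, 0 of 19 fatty acid genes and 0 of 13 of these regulators. The test was missed by Cox8a without immobilized replicates 2 or 3. The adjusted p of Ppargc1a and Esrrg was 0.05 or more without immobilized replicate 3 or basal replicate 3. Under another scaling Ppargc1a and Esrrg were not called with equal sums.

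Glycolysis had 12 of 22 genes lower and 2 higher, with a median of -0.66. The glucose transporter Slc2a4 (GLUT4) had 395, 429.9, 476 and 735 in basal and 213, 316 and 206 in immobilized muscles (log2 fold change -1.04 ± 0.22, adjusted p = 0.00193). The muscle enolase Eno3 had 5031 ± 1664 in basal and 1696 ± 378 in immobilized muscles (log2 fold change -1.54 ± 0.27, adjusted p = 3.87e-04), and Tpi1 1986 ± 733 in basal and 656 ± 167 in immobilized muscles (log2 fold change -1.57 ± 0.27, adjusted p = 3.26e-04). Pfkfb3 and Pfkfb1, which set the level of the activator of phosphofructokinase, fell further (log2 fold change -1.96 ± 0.31, adjusted p = 1.66e-04 and log2 fold change -2.10 ± 0.30, adjusted p = 5.99e-05). Hexokinases differed, with Hk1 higher (log2 fold change 0.60 ± 0.17, adjusted p = 0.0135) and Hk2 not called (483 ± 190.1 in basal and 309 ± 19.5 in immobilized muscles, adjusted p = 0.0511). In glycogen metabolism 6 of 12 genes fell, among them glycogen synthase Gys1 (log2 fold change -1.19 ± 0.17, adjusted p = 7.64e-05) and the phosphorylase Pygm (log2 fold change -1.12 ± 0.18, adjusted p = 1.96e-04), and 2 rose, the branching enzyme Gbe1 (log2 fold change 1.12 ± 0.19, adjusted p = 2.44e-04) and Ugp2 (log2 fold change 0.47 ± 0.16, adjusted p = 0.0345). After rescaling to equal sums, glycolysis had 10 genes lower and 5 higher, and it had 10 lower without immobilized replicate 3, with 0 higher, and 10 without basal replicate 4. In glycogen metabolism 1 was higher when either library was left out. Fitted again, Hk1 did not pass without immobilized replicate 3. The call of Ugp2 did not hold without immobilized replicates 2 or 3 or basal replicates 1, 2 or 4.

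Many genes of protein synthesis and folding rose. Of 78 cytosolic ribosomal protein genes 43 rose and 1 fell, the median was 0.50 and 77 had a fold change above 0. Rpl3 had 44.3, 38.5, 47.9 and 61.7 in basal and 93.9, 213 and 278 in immobilized muscles (log2 fold change 1.88 ± 0.33, adjusted p = 4.23e-04), and its muscle-specific paralog Rpl3l, the 1 that fell, had 348, 364, 395 and 627 in basal and 170.2, 166 and 139 in immobilized muscles (log2 fold change -1.41 ± 0.22, adjusted p = 1.45e-04). For neither paralog did the groups overlap. Ribosomal protein genes have many processed pseudogenes, which can take up their reads. Without immobilized replicate 3 the number that rose was 14, and without basal replicate 4 it was 72, so this count drops without the former and grows without the latter. It was 68 with quantile normalization and 77 with equal sums. The list summed to 9231, 8749, 9206 and 13719 in basal libraries and to 11606, 14792 and 15406 in immobilized libraries, where basal replicate 4 lies within the immobilized range. The elongation factors also moved in opposite directions, where Eef1a1, the general form, rose, with 263 ± 35.8 in basal and 662 ± 169 in immobilized muscles (log2 fold change 1.31 ± 0.20, adjusted p = 1.36e-04) and Eef1a2, the form of adult muscle, fell, with 1348 ± 413 in basal and 862 ± 139 in immobilized muscles (log2 fold change -0.61 ± 0.20, adjusted p = 0.0288). Of 54 translation factors 11 rose and 4 fell, while 30 rose and 0 fell with equal sums, 17 and 1 with quantile normalization and 6 and 1 without immobilized replicate 3. Over all tested genes 14.9% rose and 14.5% fell, and with equal sums 4087 of 13705 genes were higher and 741 lower. In the endoplasmic reticulum, 12 of 20 chaperones and genes of the unfolded protein response rose and 0 fell (median 0.69), among them the chaperone BiP (Hspa5, log2 fold change 0.57 ± 0.19, adjusted p = 0.0291), its regulator Xbp1 (log2 fold change 0.97 ± 0.19, adjusted p = 9.37e-04) and the disulfide isomerase Pdia3 (log2 fold change 1.17 ± 0.23, adjusted p = 0.00111), and 5 rose without immobilized replicate 3. Among 8 small heat shock proteins and Bag3, 4 rose and 0 fell. Hspb7 had 227, 166, 480.2 and 795 in basal and 1763, 2623 and 2453 in immobilized muscles (log2 fold change 2.69 ± 0.45, adjusted p = 2.58e-04) and Hspb1 76.1, 62.3, 73.9 and 91.7 in basal and 310.1, 312 and 339 in immobilized muscles (log2 fold change 2.07 ± 0.41, adjusted p = 0.00108), and the groups were apart for both. The HSP70, HSP90 and HSP40 families had 2 of 19 higher and 2 lower, with equal sums 7 and 0, and without immobilized replicate 3 both counts were 1. Eef1a2 was no longer called without immobilized replicates 1 or 3 or basal replicate 4. No call was left for Hspa5 without immobilized replicate 3 or basal replicate 4. By scaling, Eef1a2 was no longer called with equal sums or with quantile normalization.

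**Figure D2:**
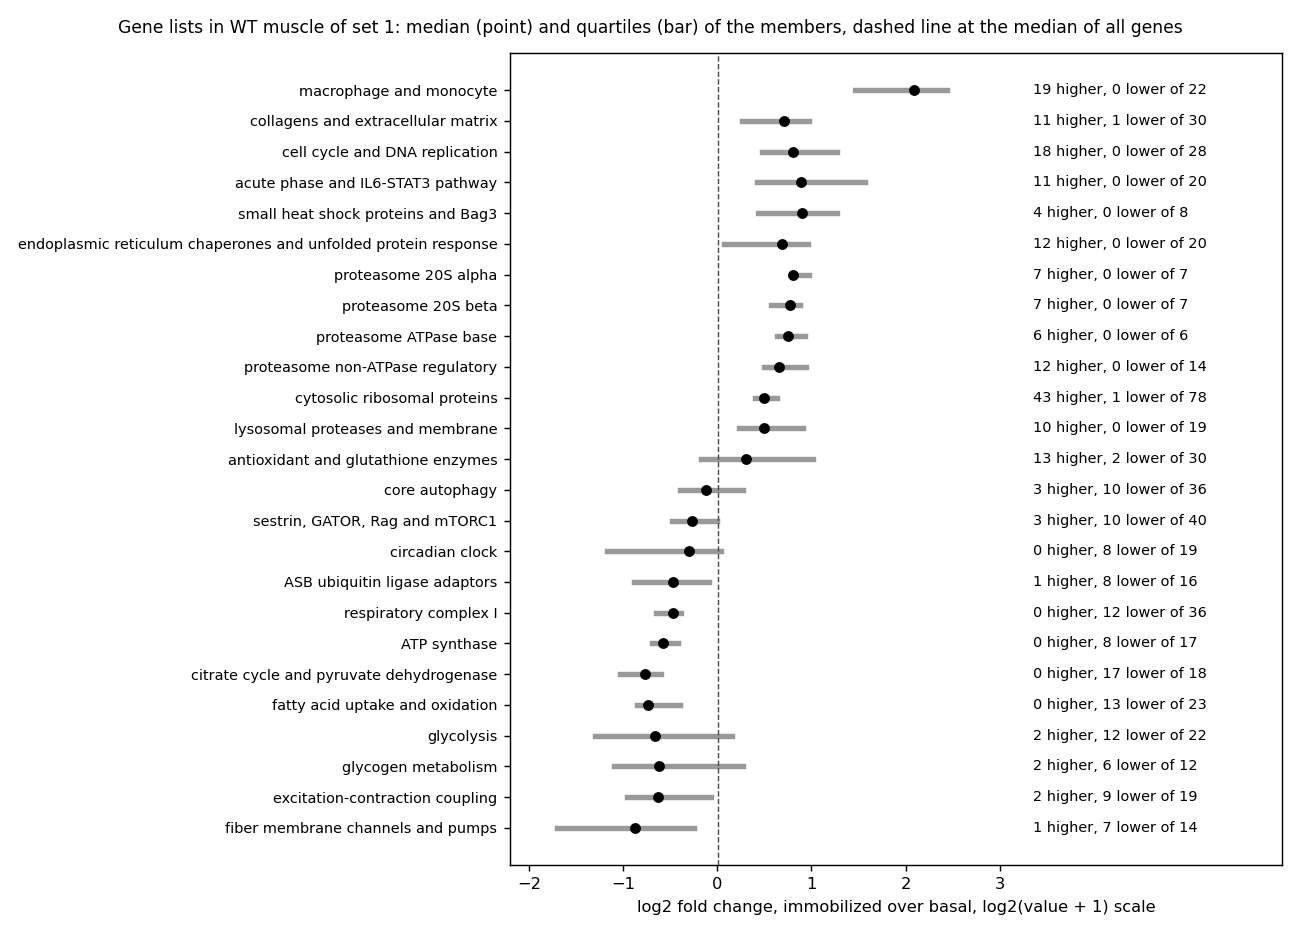
Median (points) and quartiles (bars) of the log2 fold change, immobilized over basal on the log2(value + 1) scale, for the genes of 25 lists in WT muscle of set 1, with the numbers called higher and lower of those tested. The lists of proteasome core, ATPase and non-ATPase subunits lie between 0.65 and 0.80 and the citrate cycle list at -0.77, beside a median of 0.003 over all genes (dashed line).

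More antioxidant genes rose than fell. Of 30 antioxidant and glutathione genes 13 rose and 2 fell, with a median of 0.31. Heme oxygenase 1 (Hmox1) rose, with 6.15, 4.21, 5.17 and 3.87 in basal and 54.2, 16.8 and 40 in immobilized muscles (log2 fold change 2.57 ± 0.44, adjusted p = 2.91e-04). Sulfiredoxin (Srxn1), which repairs peroxiredoxins, rose, with 31.4, 25.6, 30.3 and 23.7 in basal and 189.9, 75.5 and 91.3 in immobilized muscles (log2 fold change 1.95 ± 0.34, adjusted p = 3.73e-04), the extracellular superoxide dismutase Sod3 rose (log2 fold change 2.11 ± 0.47, adjusted p = 0.00227), and so did thioredoxin (Txn1, log2 fold change 1.54 ± 0.21, adjusted p = 4.28e-05) and ferritin light chain (Ftl1, log2 fold change 1.46 ± 0.24, adjusted p = 2.08e-04). The 2 that fell, Sod2 (log2 fold change -1.05 ± 0.18, adjusted p = 3.17e-04) and Prdx3 (log2 fold change -0.36 ± 0.13, adjusted p = 0.0429), encode mitochondrial enzymes and were named after their values were seen. The transcription factor Nfe2l2 was listed at 41.5 ± 3.3 in basal and 51.6 ± 16.4 in immobilized muscles and not called (adjusted p = 0.237), but was called higher with equal sums. Leaving out immobilized replicate 3 left the number that rose at 13. The test was missed by Prdx3 without immobilized replicates 1, 2 or 3 or basal replicates 3 or 4. In addition Prdx3 was not called with equal sums or with quantile normalization.

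Of 9 myosin heavy chain genes Myh4, the IIB form, was the one called, with 52678, 56193, 36273 and 32794 in basal and 32063, 22685 and 19829 in immobilized muscles (log2 fold change -0.83 ± 0.30, adjusted p = 0.0392), and the lowest basal library lay just above the highest immobilized one. The IIX gene Myh1 had 5078, 9642, 18900.0 and 27425 in basal and 6554, 11226 and 8161 in immobilized muscles and the IIA gene Myh2 248, 216, 1801 and 2126 in basal and 770.3, 1196 and 1085 in immobilized muscles, with adjusted p of 0.308 and 0.627 and a wide spread between basal libraries. Basal replicates 3 and 4 had the highest values of both. Of 11 fast-fiber genes 5 fell and 0 rose (median -0.50), among them parvalbumin (Pvalb, log2 fold change -0.93 ± 0.21, adjusted p = 0.00306) and the calcium pump Atp2a1 (log2 fold change -1.02 ± 0.22, adjusted p = 0.00182), and 0 were called with quantile normalization. Of 19 genes of excitation-contraction coupling 9 fell and 2 rose (median -0.63). The calcium release channel Ryr1 had 3719.6, 4630.3, 3594 and 4263 in basal and 2976, 1780.3 and 1647 in immobilized muscles (log2 fold change -0.97 ± 0.22, adjusted p = 0.00306), the calcium store protein Casq1 2223 ± 337 in basal and 962 ± 126 in immobilized muscles (log2 fold change -1.20 ± 0.23, adjusted p = 8.55e-04) and its partner Hrc 856 ± 116 in basal and 339 ± 50.3 in immobilized muscles (log2 fold change -1.33 ± 0.22, adjusted p = 2.04e-04). The 2 that rose were Cacng1 (log2 fold change 0.82 ± 0.23, adjusted p = 0.0103) and sarcolipin (Sln, log2 fold change 1.21 ± 0.30, adjusted p = 0.00552), an inhibitor of the calcium pump. Among 14 channels and pumps of the fiber membrane 7 fell and 1 rose, and they included the chloride channel Clcn1 (log2 fold change -1.39 ± 0.18, adjusted p = 2.54e-05), the water channel Aqp4 (log2 fold change -2.18 ± 0.55, adjusted p = 0.00589) and the sodium channel Scn4a (log2 fold change -0.85 ± 0.17, adjusted p = 0.00117). With equal sums, 8 coupling genes and 7 channel genes were lower. The adjusted p of Myh4 was 0.05 or more without immobilized replicates 2 or 3 or basal replicates 1 or 2. Fitted again, Cacng1 did not pass without immobilized replicate 2. Under another scaling Myh4 was not called with equal sums or with quantile normalization. By scaling, Pvalb, Atp2a1 and Ryr1 were no longer called with quantile normalization.

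Some genes known to respond to denervation and stretch rose, while other genes on the same lists fell. The acetylcholine receptor genes Chrna1 (8.96 ± 6.52 in basal and 30.2 ± 10.7 in immobilized muscles, log2 fold change 2.02 ± 0.53, adjusted p = 0.00786) and Chrnb1 (31.6 ± 5.87 in basal and 65.9 ± 14.9 in immobilized muscles, log2 fold change 1.03 ± 0.18, adjusted p = 3.13e-04), the receptor kinase Musk (log2 fold change 1.40 ± 0.49, adjusted p = 0.0347) and Ncam1 (log2 fold change 1.02 ± 0.27, adjusted p = 0.00824) rose, 4 of 14 genes of the neuromuscular junction, while Ache, which breaks down acetylcholine, fell (log2 fold change -1.20 ± 0.40, adjusted p = 0.0294), with 3 lower in all, which were 0 with equal sums and 1 without immobilized replicate 3 or basal replicate 4. The median of the junction list was 0.11, and over all tested genes 14.9% were higher and 14.5% lower. Myogenin (Myog) rose, with 2.67, 2.69, 1.74 and 2.8 in basal and 10.5, 18.5 and 5.79 in immobilized muscles (log2 fold change 1.74 ± 0.33, adjusted p = 6.78e-04), Myf6 rose (log2 fold change 1.36 ± 0.24, adjusted p = 4.37e-04), and Nr4a1, an immediate-early gene of contracting muscle, fell, with 121, 138, 84.3 and 94.9 in basal and 17.4, 25.5 and 22 in immobilized muscles (log2 fold change -2.28 ± 0.33, adjusted p = 8.21e-05). Their list, the myogenic and activity-dependent regulators, had 6 of 23 genes higher and 6 lower, with a median of -0.08. These counts were 6 and 1 with equal sums and 5 and 2 without immobilized replicate 3. The growth arrest gene Gadd45a rose, with 25.2, 20.3, 24 and 31.7 in basal and 399, 90.8 and 102 in immobilized muscles (log2 fold change 2.59 ± 0.42, adjusted p = 1.89e-04) and its relative Gadd45b fell (log2 fold change -1.74 ± 0.29, adjusted p = 2.81e-04). In the stretch-responsive list, 6 of 12 genes rose and 1, Ky, fell. Next to Csrp3 and Mustn1 it held the ankyrin repeat proteins Ankrd1 (61.2 ± 60.9 in basal and 398 ± 362 in immobilized muscles, log2 fold change 2.54 ± 0.94, adjusted p = 0.0464) and Ankrd2 (83.7 ± 71 in basal and 374 ± 118 in immobilized muscles, log2 fold change 2.58 ± 0.74, adjusted p = 0.0125), and 2 rose without immobilized replicate 3. Basal replicates 3 and 4 were high for Ankrd2, at 116 and 169, against 23.3 and 26.7 in the other basal libraries. The call of Musk did not hold without immobilized replicates 1 or 3 or basal replicates 1 or 4. Ache was no longer called without immobilized replicates 1 or 3 or basal replicates 2 or 4. No call was left for Ankrd1 without immobilized replicates 1 or 3 or basal replicates 1, 2 or 4. The test was missed by Ankrd2 without immobilized replicate 3. In addition Ache was not called with equal sums.

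Some genes of insulin signaling and of the clock fell. The receptor substrates Irs2 (10.9, 15.5, 14.5 and 13.8 in basal and 6.12, 2.87 and 1.43 in immobilized muscles, log2 fold change -1.84 ± 0.28, adjusted p = 1.01e-04) and Irs1 (53.6 ± 17.8 in basal and 25.6 ± 10.3 in immobilized muscles, log2 fold change -1.04 ± 0.38, adjusted p = 0.0463) were lower, while the growth factor Igf1 rose, with 8.55 ± 3.31 in basal and 19.6 ± 4.6 in immobilized muscles (log2 fold change 1.17 ± 0.32, adjusted p = 0.00892). Akt2, the isoform of glucose uptake, fell (log2 fold change -0.48 ± 0.16, adjusted p = 0.0251), and Akt1 rose (log2 fold change 0.99 ± 0.18, adjusted p = 4.76e-04). Among the FoxO genes, Foxo4 (log2 fold change -0.68 ± 0.14, adjusted p = 0.00155) and Foxo6 (log2 fold change -1.24 ± 0.24, adjusted p = 8.21e-04) fell. Irs1, Akt1 and Foxo4 were named after their values were seen. Over this list of 25 genes 4 rose and 6 fell, with a median of 0.04, while with equal sums 9 rose and 3 fell, with a median of 0.34, so the balance of the list depends on the scaling. Of 19 circadian clock genes 8 fell and 0 rose, including the output gene Dbp (55.7 ± 18.9 in basal and 17.8 ± 3.82 in immobilized muscles, log2 fold change -1.56 ± 0.32, adjusted p = 0.00144), the repressors Nr1d1 (log2 fold change -1.15 ± 0.22, adjusted p = 7.45e-04), Bhlhe40 (log2 fold change -1.34 ± 0.23, adjusted p = 3.58e-04) and Bhlhe41 (log2 fold change -1.53 ± 0.21, adjusted p = 4.58e-05) and the period gene Per3 (log2 fold change -1.22 ± 0.19, adjusted p = 1.66e-04), and 6 fell without immobilized replicate 3 as well as with equal sums, where 1 rose and the median moved from -0.30 to 0.01. The activators Arntl and Clock were not called (adjusted p = 0.547 and 0.579). The time of day of dissection is not given in the sources used here. The adjusted p of Irs1 was 0.05 or more without immobilized replicates 2 or 3 or basal replicates 1, 2 or 3. Fitted again, Igf1 did not pass without immobilized replicate 3. The call of Akt2 did not hold without immobilized replicates 2 or 3 or basal replicate 4. Under another scaling Irs1 and Akt2 were not called with equal sums or with quantile normalization.

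Markers of macrophages and monocytes rose nearly throughout. Of 22 markers 19 rose and 0 fell, with a median of 2.09, and their summed level was 66.0 to 173 in basal and 326 to 679 in immobilized libraries. Cd68, a lysosomal protein of macrophages, had 2.75, 1.5, 2.52 and 7.47 in basal and 19, 31.3 and 38.1 in immobilized muscles (log2 fold change 2.84 ± 0.40, adjusted p = 5.49e-05). Lysozyme (Lyz2) had 29.9, 21.6, 18.8 and 16.8 in basal and 95.3, 106 and 206 in immobilized muscles (log2 fold change 2.53 ± 0.38, adjusted p = 1.10e-04), galectin-3 (Lgals3) 3.48, 1.08, 1.57 and 1.68 in basal and 13.7, 14.7 and 36.2 in immobilized muscles (log2 fold change 2.86 ± 0.39, adjusted p = 4.73e-05) and the chemokine receptor Ccr2 3.77, 2.03, 2.71 and 1.43 in basal and 15.8, 11.2 and 49.1 in immobilized muscles (log2 fold change 2.69 ± 0.48, adjusted p = 4.80e-04). The pan-leukocyte gene Ptprc had 1.59 ± 0.636 in basal and 10.7 ± 7.52 in immobilized muscles (log2 fold change 2.03 ± 0.41, adjusted p = 0.00116) and the macrophage gene Emr1 2.02 ± 0.842 in basal and 9.31 ± 3.32 in immobilized muscles (log2 fold change 1.77 ± 0.34, adjusted p = 8.91e-04). Immobilized replicate 3 had the highest sum, and 16 markers rose without it. Neutrophil markers summed to 65.3 in this library, beside 3.43 and 9.52 in the other immobilized and 1.96 to 19.2 in the basal libraries, and 1 of 6 was called (Csf3r, log2 fold change 1.63 ± 0.57, adjusted p = 0.0344), with 2 called with equal sums. The lymphocyte markers, 0 of 8 with a value here, were not analysed. In the acute-phase, lysosomal, cell cycle and matrix lists more genes rose than fell as well, and the part of macrophages in this was not tested. Csf3r was no longer called without immobilized replicates 2 or 3 or basal replicates 1, 2 or 4. By scaling, Csf3r was no longer called with quantile normalization.

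Of 28 cell cycle genes 18 rose and 0 fell (median 0.80), at low levels. The proliferation marker Mki67 had 0.942, 0.673, 1.3 and 0.36 in basal and 3.92, 6.66 and 16.1 in immobilized muscles (log2 fold change 2.28 ± 0.48, adjusted p = 0.00162), Top2a 0.55 ± 0.36 in basal and 6.14 ± 4.08 in immobilized muscles (log2 fold change 2.06 ± 0.50, adjusted p = 0.00462) and Cdk1 0.151 ± 0.0813 in basal and 2.84 ± 2.19 in immobilized muscles (log2 fold change 1.56 ± 0.41, adjusted p = 0.00755). Without immobilized replicate 3 the number that rose was 3. Of 30 collagens and matrix genes 11 rose and 1 fell, and 3 rose without that library and 7 without basal replicate 4. The collagen cross-linking enzyme Lox had 8.49, 5.61, 7.15 and 2.2 in basal and 33, 50.9 and 77.7 in immobilized muscles (log2 fold change 3.02 ± 0.49, adjusted p = 2.01e-04), biglycan (Bgn) 40.9 ± 11.4 in basal and 135 ± 43.6 in immobilized muscles (log2 fold change 1.68 ± 0.31, adjusted p = 5.61e-04) and Col3a1 165 ± 56.7 in basal and 453 ± 197 in immobilized muscles (log2 fold change 1.41 ± 0.40, adjusted p = 0.0115), while Col1a1 was listed at 131 ± 117 in basal and 196 ± 104 in immobilized muscles (adjusted p = 0.379). Satellite cell markers had 2 of 6 higher, Cdh15 (log2 fold change 0.79 ± 0.16, adjusted p = 0.00125) and Vcam1 (log2 fold change 0.84 ± 0.30, adjusted p = 0.0392), and the defining marker Pax7 was at 2.1 ± 0.505 in basal and 2.41 ± 0.199 in immobilized muscles (adjusted p = 0.63). Markers of fibro-adipogenic progenitors had 3 of 7 higher and 1 lower, tenocyte markers 1 of 6 higher and 2 lower, and adipocyte markers 1 of 6 higher. Without immobilized replicate 3, 1 satellite cell and 1 progenitor marker were higher and 0 tenocyte markers lower. With equal sums 6 progenitor markers were higher and 0 tenocyte markers lower, and without basal replicate 4 both satellite cell and progenitor markers had 1 higher. None of 5 erythroid genes was called, and their sum ranged from 125 to 832 among the basal libraries. No calls were left for Cdk1 and Col3a1 without immobilized replicate 3. The test was missed by Vcam1 without immobilized replicates 2 or 3 or basal replicates 1, 2 or 4. In addition Vcam1 was not called with quantile normalization.

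**Figure D3:**
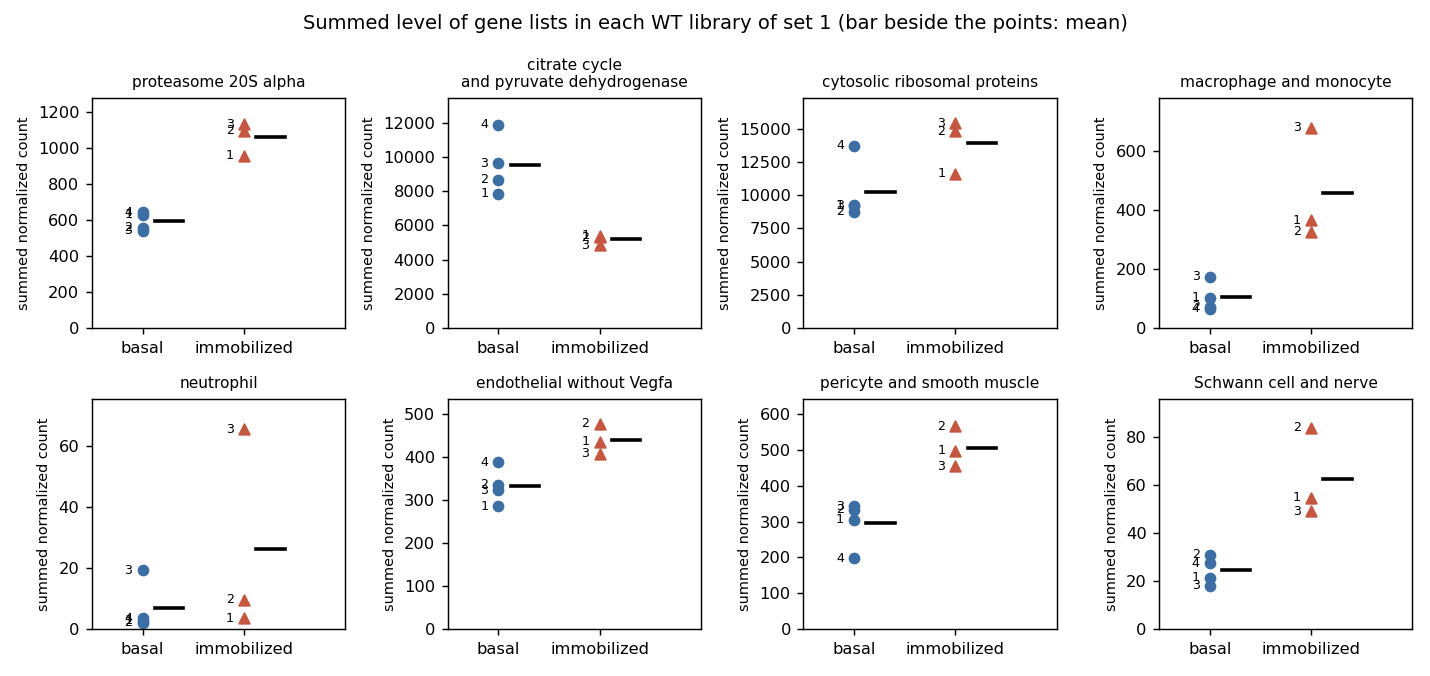
Summed normalized counts of 8 gene lists in each WT library of set 1 (circles, basal, triangles, immobilized, numbers give the replicate, bars the mean). The endothelial panel leaves out Vegfa, a choice made after its values were seen, and the sums of the full endothelial list overlap between the groups. Proteasome alpha subunits and macrophage markers lie higher in all immobilized libraries and citrate cycle genes lower, whereas for ribosomal proteins basal replicate 4 (13719) lies within the immobilized range and for neutrophil markers immobilized replicate 3 (65.3) stands apart.

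WT muscle was immobilized in both sequencing sets, with separate libraries, and the difference between the effects was tested over all 42 libraries. Of 13763 genes 853 (6.2%) had a different effect in set 1, 418 (3.04%) with a higher and 435 (3.16%) with a lower log2 fold change than in set 2. The deposited values look adjusted for each gene between the sets, since the mean over the libraries of set 1 and that over set 2 differed by less than 0.1 on the log2 scale for 92.2% of genes. How this was done is not given in the sources used here, and the fold changes compared were each taken within a set. That cancels a shift of a gene between the sets only if the shift is constant on the log scale. The WT mice of set 2 were run beside Sesn1KO mice. In set 2, 16.2% of 13629 tested genes were called higher and 17.7% lower in immobilized WT muscle. Set, breeding and sequencing run cannot be told apart. The number of genes with a different effect was 375 without immobilized replicate 3 of set 1 and 540 without immobilized replicate 2 of set 2. None of the 34 proteasome subunits, 78 cytosolic ribosomal, 18 citrate cycle or 79 respiratory genes had a different effect by this test. For the 4 genes named first, the effects in set 1 and set 2 were 5.60 and 5.15 for Mt2, 4.32 and 3.57 for Mt1, 4.36 and 2.83 for Serpina3n, and -3.32 and -2.01 for Mettl21c, with adjusted p of the differences from 0.22 to 0.835.

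Many markers of blood vessels and nerve differed between the sets. Differences below are those of the log2 fold changes, set 1 minus set 2, ± SE. Of 12 endothelial markers 5 rose and 2 fell in set 1 and 0 rose and 9 fell in set 2, and 9 had a higher effect in set 1. In set 1, 3 rose and 1 fell without immobilized replicate 3, 4 and 1 without basal replicate 4, and 10 and 1 with equal sums. Pecam1 (CD31) had 44.5, 40.7, 49.2 and 62.3 in basal and 78.3, 87.8 and 79.4 in immobilized muscles in set 1 (log2 fold change 0.74 ± 0.15, adjusted p = 0.00144), beside a log2 fold change of -0.49 in set 2, a difference of 1.23 ± 0.21 (SE, adjusted p = 9.51e-04). The tight-junction gene Cldn5 (1.42 ± 0.36, adjusted p = 0.0152) and endoglin (Eng, 1.34 ± 0.28, adjusted p = 0.00397) differed likewise. The growth factor gene Vegfa, on this list but made by muscle fibers, fell in set 1, with 144, 214, 259 and 209 in basal and 67.2, 58.1 and 41.4 in immobilized muscles (log2 fold change -1.87 ± 0.18, adjusted p = 1.52e-06) and had a log2 fold change of -1.40 in set 2, and Kdr, its receptor, fell in both (log2 fold change -0.72 ± 0.25, adjusted p = 0.0326 in set 1 and -1.38 in set 2). The 12 markers summed to between 430 and 597 in basal and between 449 and 535 in immobilized libraries, which overlap. Without Vegfa, a choice made after its values were seen, the other 11 summed to 285 to 388 and 408 to 477. Of 6 markers of pericytes and smooth muscle 3 rose in set 1 while 0 rose and 4 fell in set 2, and 4 differed. With equal sums 5 rose in set 1. Transgelin (Tagln) had 11.5, 11.2, 16 and 15.1 in basal and 26.9, 48.1 and 30.9 in immobilized muscles in set 1 (log2 fold change 1.30 ± 0.24, adjusted p = 6.29e-04), and it differed by 2.10 ± 0.40, adjusted p = 0.00146, as did smooth muscle actin Acta2 (1.89 ± 0.41, adjusted p = 0.00495), the myosin gene Myh11 (1.73 ± 0.33, adjusted p = 0.00146) and Rgs5 (1.54 ± 0.32, adjusted p = 0.00324). Of 7 Schwann cell and nerve markers 4 rose in set 1 and 0 were called in set 2. The effect of 4 was higher in set 1, among them the myelin genes Mbp (4.21, 9.3, 3.53 and 8.14 in basal and 14.2, 18.7 and 12 in immobilized muscles, difference 1.66 ± 0.44, adjusted p = 0.017) and Pmp22 (1.58 ± 0.30, adjusted p = 0.00161). These counts of 9, 4 and 4 were 7, 4 and 4 without immobilized replicate 3 of set 1, 8, 4 and 3 without its basal replicate 4, and 9, 4 and 4 with equal sums. The transgenic muscles of set 1 shared the rise. Of the endothelial markers 8 rose and 1 fell in Sesn1SkM-Tg and 10 rose and 1 fell in Sesn2SkM-Tg muscle. In the same order 6 and 5 pericyte and smooth muscle markers and 6 and 6 Schwann cell markers rose, and 0 fell. Over all genes 18.2% and 15% rose in these muscles. Of the macrophage markers 1 differed by the test, Cx3cr1 (1.50 ± 0.40, adjusted p = 0.018, named after its value was seen), although their median was 2.09 in set 1 and 0.99 in set 2. The adjusted p of Kdr was 0.05 or more without immobilized replicate 3 or basal replicates 2 or 4. Under another scaling Kdr was not called with equal sums or with quantile normalization. The difference of Mbp between the sets was not called without set 1 immobilized replicate 2. Cx3cr1 no longer differed by the test without set 1 immobilized replicate 3 or set 2 basal replicate 3.

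**Figure D4:**
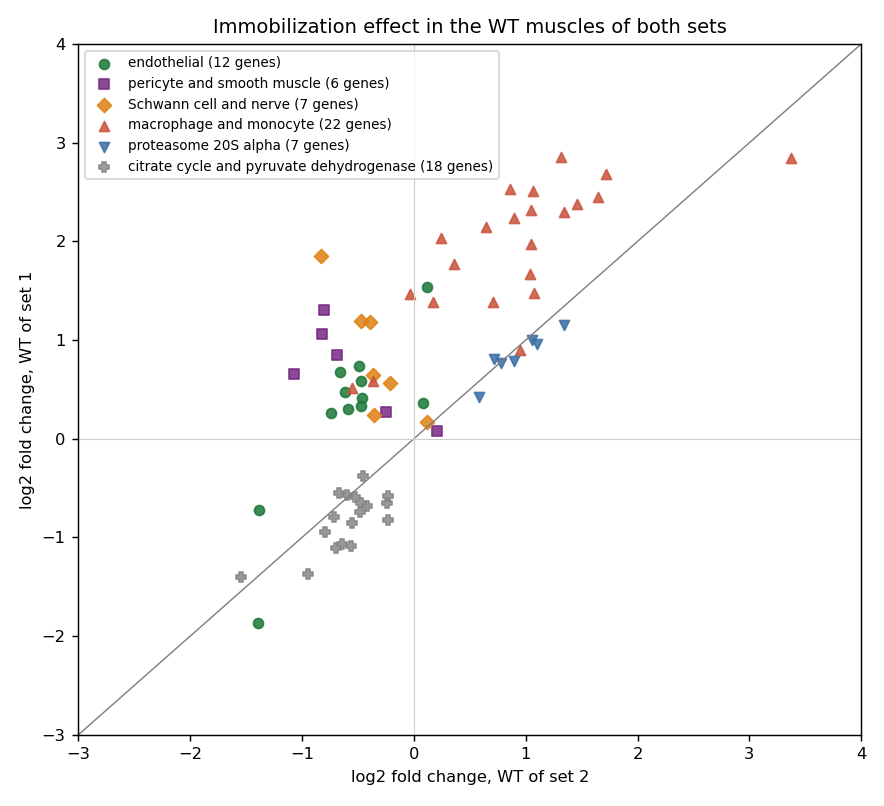
Log2 fold change of immobilized over basal WT muscle in set 1 (vertical axis) and set 2 (horizontal axis) for the members of 6 lists, with the line of equal effects. Proteasome and citrate cycle genes lie near the line, while most endothelial, pericyte and smooth muscle and Schwann cell markers lie above it, with medians of 0.39, 0.75 and 0.65 in set 1 and -0.54, -0.74 and -0.36 in set 2.

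Some genes of nutrient sensing, autophagy and the clock had lower effects in set 1 than in set 2. In core autophagy 13 genes rose and 3 fell in set 2, and 6 of 36 had a lower effect in set 1, among them Atg13 (-1.11 ± 0.18, adjusted p = 4.76e-04). In the sestrin and mTORC1 list 10 rose and 5 fell in set 2 and 5 of 40 differed, including Sesn1, whose log2 fold change was -0.41 in set 1 and 0.63 in set 2, a difference of -1.04 ± 0.30, adjusted p = 0.0323. The counts were 3 and 2 without immobilized replicate 3 of set 1 and 2 and 2 with equal sums. In the clock list 6 of 19 differed and all 6 were lower in set 1, Ciart (-2.19 ± 0.41, adjusted p = 0.00146), Per1 (-1.86 ± 0.47, adjusted p = 0.014), Nr1d1 (-1.22 ± 0.33, adjusted p = 0.0207), Cry2 (-1.19 ± 0.28, adjusted p = 0.00946), Bhlhe41 (-1.14 ± 0.32, adjusted p = 0.0261) and Tef (-0.58 ± 0.18, adjusted p = 0.0463), and 3 differed without that library and 3 with equal sums. Ciart, Per1, Cry2 and Tef were named after their values were seen. Irs2 differed by -2.19 ± 0.56, adjusted p = 0.0155, with -1.84 in set 1 and 0.35 in set 2. Of the atrophy ligases Trim55 differed (-0.66 ± 0.20, adjusted p = 0.0359), and Fbxo40 as well (-1.16 ± 0.27, adjusted p = 0.00719, named after its value was seen). Fbxo32 and Trim63 had effects of 1.90 and 2.09 in set 2 and did not pass (adjusted p of the difference 0.423 and 0.538). The immunoproteasome genes Psmb8 (1.47 ± 0.39, adjusted p = 0.0176) and Psmb9 (1.46 ± 0.39, adjusted p = 0.0194) had higher effects in set 1, where 4 of the 5 immunoproteasome genes rose, or 1 without immobilized replicate 3, when neither difference was called. For Sesn1 the difference was not called with equal sums. No difference was called for Nr1d1, Bhlhe41, Tef and Trim55 with equal sums or with quantile normalization. The difference of Fbxo40 was not called with quantile normalization. The difference of Sesn1 between the sets was not called without set 1 immobilized replicates 2 or 3 or set 1 basal replicates 1 or 2 or set 2 immobilized replicates 2 or 3 or set 2 basal replicates 2 or 4. Nr1d1 no longer differed by the test without set 1 immobilized replicates 2 or 3 or set 2 immobilized replicate 2 or set 2 basal replicate 3. The difference of Bhlhe41 between the sets was not called without set 1 immobilized replicates 1 or 3 or set 2 basal replicates 1 or 3. Tef no longer differed by the test without set 1 immobilized replicates 2 or 3 or set 1 basal replicates 2 or 4 or set 2 immobilized replicates 1, 2 or 3 or set 2 basal replicates 1, 2, 3 or 4. The difference of Irs2 between the sets was not called without set 1 immobilized replicate 3. Trim55 no longer differed by the test without set 1 immobilized replicates 2 or 3 or set 1 basal replicates 2 or 4 or set 2 immobilized replicates 1, 2 or 4 or set 2 basal replicates 1, 2 or 3. The difference of Psmb8 between the sets was not called without set 1 immobilized replicate 3 or set 2 basal replicate 3. Psmb9 no longer differed by the test without set 1 immobilized replicates 2 or 3 or set 2 immobilized replicate 3 or set 2 basal replicate 3.

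Over all genes, the largest differences above set 2 included those of Gm4070 (4.09 ± 0.98, adjusted p = 0.00951), Tmem254c (2.27 ± 0.61, adjusted p = 0.0211), the Wnt inhibitor Sfrp1 (2.21 ± 0.58, adjusted p = 0.0181) and Plac9a (2.15 ± 0.67, adjusted p = 0.0473). Gm4070, Tmem254c and Plac9a have near-identical copies in the genome, so their values are uncertain. Gm4070 was listed at 8, 0.0581, 7.99 and 7.08 in basal and 13.9, 7.26 and 19.4 in immobilized muscles, with 1 basal library near 0. Sfrp1 had 0.889, 1.16, 1.01 and 0.569 in basal and 7.62, 5.63 and 10.6 in immobilized muscles in set 1. The largest differences below set 2 included those of a gene without a symbol, ENSMUSG00000101384 (-3.45 ± 1.06, adjusted p = 0.0422), Pfkfb3 (-2.55 ± 0.67, adjusted p = 0.018), the protease Adamts20 (-2.29 ± 0.51, adjusted p = 0.00556) and Chac1, an enzyme that degrades glutathione (-2.28 ± 0.70, adjusted p = 0.0421). Pfkfb3 had 512, 489, 347 and 236 in basal and 131, 67.6 and 101 in immobilized muscles in set 1, and was not called in set 2 (log2 fold change 0.59). Perm1 had a larger decrease in set 1 (-1.48 ± 0.42, adjusted p = 0.0271). For Plac9a the difference was not called with quantile normalization. No difference was called for ENSMUSG00000101384 and Chac1 with equal sums or with quantile normalization. The difference of Tmem254c between the sets was not called without set 1 immobilized replicates 2 or 3 or set 1 basal replicate 1. Sfrp1 no longer differed by the test without set 1 immobilized replicate 3. The difference of Plac9a between the sets was not called without set 1 immobilized replicates 1, 2 or 3 or set 1 basal replicates 1, 2 or 3 or set 2 immobilized replicates 1 or 2 or set 2 basal replicates 1, 3 or 4. ENSMUSG00000101384 no longer differed by the test without set 1 immobilized replicates 2 or 3 or set 1 basal replicates 1, 2, 3 or 4 or set 2 immobilized replicates 2, 3 or 4 or set 2 basal replicates 2 or 3. The difference of Pfkfb3 between the sets was not called without set 1 immobilized replicate 2 or set 2 immobilized replicate 2 or set 2 basal replicate 2. Chac1 no longer differed by the test without set 1 immobilized replicates 2 or 3 or set 1 basal replicates 2, 3 or 4 or set 2 immobilized replicates 2 or 3 or set 2 basal replicates 1, 2 or 3. The difference of Perm1 between the sets was not called without set 1 immobilized replicate 3 or set 1 basal replicates 3 or 4 or set 2 immobilized replicate 2 or set 2 basal replicate 3.

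Immobilization was also done in the transgenic mice of the same set, each line with its own basal group, and 34.7% of genes were called for Sesn1SkM-Tg and 30.7% for Sesn2SkM-Tg muscle, beside 29.3% for WT. No gene had an effect in WT muscle that differed from that in Sesn1SkM-Tg muscle by limma (0 of 13705 genes, 0%), with 401 genes at an unadjusted p under 0.05. Against Sesn2SkM-Tg muscle 1 gene differed (0.0073%), with 1008 at an unadjusted p under 0.05. That gene was Cbr2, a carbonyl reductase, with 25.5, 20.8, 14.2 and 16 in basal and 21.3, 18.2 and 21.6 in immobilized muscles of WT mice, a log2 fold change of 0.12 in WT, -1.40 in Sesn2SkM-Tg and -0.02 in Sesn1SkM-Tg muscle. The call of Cbr2 did not hold without WT immobilized replicate 3, WT basal replicate 3, or, of Sesn2SkM-Tg, immobilized replicate 3, basal replicate 2 or basal replicate 3. A difference that misses the threshold does not show that the effects were alike. For Mt2 the fold changes were 5.60 in WT, 4.60 in Sesn1SkM-Tg and 4.59 in Sesn2SkM-Tg muscle, for Mettl21c -3.32, -2.70 and -3.14, for Trim63 1.60, 0.67 and 2.46, and for Fbxo32 1.08, 0.14 and 2.29. The medians of the 20S alpha subunits were 0.80, 0.70 and 0.92, those of the citrate cycle list -0.77, -0.70 and -0.73 and those of the macrophage markers 2.09, 2.23 and 0.77, in the same order.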

How the data were processed

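RNA of TA muscles was made into libraries from total RNA with the NEBNext Ultra kit and sequenced on an Illumina HiSeq in 2 sets. According to the submitters' notes and methods, reads were trimmed with Cutadapt 1.7.1, checked with FastQC and counted with RSEM 1.2.20 on GRCm38, and the notes also name limma and edgeR. The deposited table, a signal on a linear scale, holds normalized counts of 13809 genes in 42 libraries, 103 of them without a symbol, and no value is 0. The values look adjusted for each gene between the sets. How this was done is not given in the sources used here, so no level was set beside one of the other set. Raw counts and read totals were not used here, and the depth behind a value is unknown.

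Values were tested as log2(value + 1) with limma 3.58.1 in R 4.3.3 (lmFit, eBayes with trend, two-sided). The 22 libraries of set 1 were fitted with 1 coefficient for each of 6 groups, and the difference between sets over all 42 libraries. A gene was tested where any library reached a value of 1, and called at an adjusted p (Benjamini-Hochberg) under 0.05 with a log2 fold change of 0.25 or more in either direction. The scripts were tested on simulated data. A single-gene permutation test over 3 and 4 libraries has 35 splits, which is too coarse for adjustment over all genes, so it was not used. Named genes are the 4 markers, the 12 largest increases and decreases called with a symbol that is not a predicted gene and a mean of at least 5 in a group, the sestrins, and of each list the first 3 members, the 4 largest called changes and the called member with the highest level, or any member of a list of up to 15, with the 5 largest differences in each direction. Members and lists were chosen with earlier results of these data known. Gene positions are from GENCODE M21, promoter windows from RefSeq on GRCm38.p6. Some genes that this rule names are not reported here.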

Additional observations from a re-analysis of the deposited data

Results flagged for a closer look

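Among the 189 named genes, 19 had a basal WT library of set 1 that stood apart from the other 3 by Dixon's criterion. Chance alone gives such a result in about 1 of 20 groups, and groups of 3, such as the immobilized libraries, were not examined. In basal replicate 1 the normalized count stood apart for Lcn2 (0.599). In basal replicate 2 the normalized count stood apart for Gm4070 (0.0581). In basal replicate 3 the normalized count stood apart for Timp1 (4.68), Clcn1 (182), Myog (1.74), Ankrd1 (151) and Col1a1 (307). In basal replicate 4 the normalized count stood apart for Mtf1 (17.1), Fbxo30 (9.48), Cs (1204.9), Cpt1b (535), Eno3 (7524.4), Tpi1 (3082.2), Rpl3l (627), Prdx3 (232), Akt1 (68.5), Cldn5 (11.7), Rgs5 (101) and Plac9a (3.07). Basal replicate 4 also stood apart in the sum of its normalized counts (1159418) and in its position on the second principal component (-48.27).

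The immobilization effect in WT muscle of set 1 was higher than that of set 2 by limma over all 42 libraries for 17 named genes, with log2 differences of 0.79 for Cd36, 1.23 for Pecam1, 1.42 for Cldn5, 1.34 for Eng, 2.10 for Tagln, 1.89 for Acta2, 1.73 for Myh11, 1.54 for Rgs5, 1.66 for Mbp, 1.58 for Pmp22, 1.50 for Cx3cr1, 1.47 for Psmb8, 1.46 for Psmb9, 4.09 for Gm4070, 2.27 for Tmem254c, 2.21 for Sfrp1 and 2.15 for Plac9a. The immobilization effect in WT muscle of set 1 was lower than that of set 2 by limma over all 42 libraries for 17 named genes, with log2 differences of -1.48 for Perm1, -3.45 for ENSMUSG00000101384, -1.04 for Sesn1, -0.66 for Trim55, -1.11 for Atg13, -2.55 for Pfkfb3, -0.87 for Hk2, -2.19 for Irs2, -1.22 for Nr1d1, -1.14 for Bhlhe41, -2.19 for Ciart, -1.86 for Per1, -1.19 for Cry2, -0.58 for Tef, -1.16 for Fbxo40, -2.29 for Adamts20 and -2.28 for Chac1. Against Sesn2SkM-Tg muscle of the same set, the effect in WT muscle was higher for Cbr2, with a log2 difference of 1.52.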

How the results depend on the processing

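The effect in WT muscle of set 1 was computed under 22 other settings. No gene called under both changed its sign. Of 4018 called genes, the number was 2665 with the 7 compared libraries alone, 1045 for log2 fold changes of 1 or more in either direction, 3751 with quantile normalization, 4828 with each library rescaled to the same sum and between 3154 (pseudocount 10) and 3996 (pseudocount 0.1) with other pseudocounts. Leaving out 1 library gave 2020 (without immobilized replicate 3) to 4026 calls (without basal replicate 4). Replicate numbers shared by the groups did not pair the libraries, since the deviations of same-numbered libraries correlated at 0.138, -0.223 and 0.102, and a fit with the replicate block gave 3711 calls. Of 189 named effects 128 kept their direction and their side of the threshold in every setting apart from the changes of the fold change threshold. Calls of named genes were lost for 17 with the compared libraries alone, for 15 with equal sums, for 15 with quantile normalization, for 7 with the replicate block (Eef1a2 among them, adjusted p = 0.0558) and for 5 with array quality weights, where 5 others were gained.

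The difference between the sets was called for 853 genes and for 389 at an absolute difference of at least 1, for 641 with the compared groups alone, for 658 with the replicate block and for 728 after rescaling to the same sum, where 84.9% were higher. Leaving out 1 library gave 375 (without immobilized replicate 3 of set 1) to 1097 calls (without immobilized replicate 1 of set 1), and 540 without immobilized replicate 2 of set 2. Against Sesn1SkM-Tg muscle 0 to 1 genes were called on leaving out 1 library, the 1 without its immobilized replicate 2. Against Sesn2SkM-Tg muscle the number was 2 with the compared groups alone, 0 with the replicate block and 0 to 5 on leaving out 1 library, with 0 without immobilized replicate 3 and 5 without basal replicate 4 of WT. The cause of these changes was not tested. The depth behind the values is unknown, which limits what can be said of genes near 0.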
